A study of Mus musculus with 61 samples.

Results

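CD4+ T cells that lack their own STAT5A and STAT5B were given either unmutated STAT5B or STAT5B carrying the substitution Y665H, a histidine in place of a tyrosine, and the RNA of both was compared. The members are 6 of the 61 RNA-seq libraries of the series, namely the 3 titled for Stat5a/b-null CD4+ cells with the Y665H vector and the 3 titled for the same cells with the STAT5B vector. Naive CD4+ T cells came from C57BL/6 mice aged 2 months, from pooled lymph nodes and spleens. In the null mice, Cd4-Cre removed the floxed Stat5a and Stat5b genes in cells that express CD4. The cells were activated through the T cell receptor and CD28, transduced with a retrovirus, kept for 48 h with interleukin-2 (IL-2) and sorted for the GFP of the vector. Cells of both groups therefore shared the deletion, the activation, the virus and the cytokine, and differed in the construct. The deletion depends on Cre, so residual undeleted cells can occur, and the genotype label reads Stat5a/b flox/flox for the WT libraries too. Libraries of the same null cells with the empty vector, and of WT cells with each vector, are used here as references. Nothing in the labels says that the 3 libraries of a group came from separate animals, so p-values measure a spread between libraries. For the null contrast that spread was estimated within groups over the 15 null libraries of all 5 vectors.

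STAT5B is a transcription factor that waits in the cytoplasm. When IL-2 binds its receptor, JAK kinases phosphorylate receptor and STAT5B, pairs of STAT5B molecules bind each other through their SH2 domains, and the dimer enters the nucleus and binds DNA at palindromes of the form TTCNNNGAA. In T cells it is known for raising the IL-2 receptor alpha chain, survival genes and cytokines, and for raising SOCS proteins and CIS, which then dampen the JAK signal. The substituted tyrosine lies in the SH2 domain. The stretch of the Stat5b-202 transcript around this codon, on the minus strand of chromosome 11 of GRCm38, is shown to place the change. The tyrosine codon is in capitals, at chr11:100787291-100787293, and the stretch runs from codon 656 to codon 674 of 786.
Stat5b codons: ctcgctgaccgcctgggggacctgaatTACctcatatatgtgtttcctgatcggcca
The letters that encode histidine in the vector were not given in the sources used here.

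Of the genes that fell with Y665H, 3 have TTCNNNGAA on either strand in the window from 250 bases before to 50 bases after a RefSeq start site, and these windows (GRCm38.p6) are printed with the matches in capitals because they carry the sequence that STAT5B is known to bind. Cish, on the plus strand, is at chr9:107296409-107296708, Lta, on the minus strand, is at chr17:35205302-35205601, and Pros1, on the plus strand, is at chr16:62854057-62854356.
Cish: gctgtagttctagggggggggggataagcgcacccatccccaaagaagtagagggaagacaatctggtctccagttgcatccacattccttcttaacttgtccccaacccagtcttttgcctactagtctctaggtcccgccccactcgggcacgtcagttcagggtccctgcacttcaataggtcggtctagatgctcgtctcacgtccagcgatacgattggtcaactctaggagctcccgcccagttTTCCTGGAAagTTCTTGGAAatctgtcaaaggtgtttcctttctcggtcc
Lta: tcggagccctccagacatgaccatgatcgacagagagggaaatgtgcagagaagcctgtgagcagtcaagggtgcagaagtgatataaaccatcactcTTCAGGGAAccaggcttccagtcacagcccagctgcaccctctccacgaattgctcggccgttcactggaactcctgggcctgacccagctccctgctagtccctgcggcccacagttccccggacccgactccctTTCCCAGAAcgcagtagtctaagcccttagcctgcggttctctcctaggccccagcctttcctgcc
Pros1: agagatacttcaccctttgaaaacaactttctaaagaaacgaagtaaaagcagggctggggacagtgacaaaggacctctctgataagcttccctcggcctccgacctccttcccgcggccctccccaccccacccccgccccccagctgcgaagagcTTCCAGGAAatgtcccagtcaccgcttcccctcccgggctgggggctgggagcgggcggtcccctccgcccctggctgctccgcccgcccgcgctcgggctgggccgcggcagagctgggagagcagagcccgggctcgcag
The window held the motif in 3 of the 21 lower genes with a window (14.3%) and in 1321 of the 14835 tested genes with one (8.90%). It held 2 or more matches in 2 of the 21, Cish and Lta, and in 77 of all genes (0.519%). A match is a description of the letters, and binding elsewhere than in this window was not examined.

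The null cells carried both vectors, with Stat5b RNA far above the empty vector in all 6 libraries. Stat5b was at 2.83, 5.53 and 9.82 CPM (a gene's reads relative to the total of its library, scaled with edgeR's TMM factors) in the 3 empty-vector libraries, at 369, 348 and 253 CPM with STAT5B and at 245, 384 and 207 CPM with Y665H. The STAT5B and Y665H libraries overlapped. The mean log2 level with Y665H was 0.25 below that with STAT5B (exact two-sided permutation p = 0.6, with 0.1 the smallest that 3 against 3 allow). A test of this size could not have passed at 0.05, so equal levels are not shown. Reads from vector and locus are counted together, and protein was not measured in these libraries. Stat5a, which no vector encodes, was at 2.02, 2.46 and 5.55 CPM with STAT5B and at 2.02, 5.20 and 15.7 CPM with Y665H. Y665H replicate 3 therefore held the most Stat5a, against 135 to 169 CPM in WT cells with the empty vector, which were scaled in their own fit. The part of such residual Stat5a in the results was not tested. In the 6 libraries, the CD4 marker pair Cd4 and Zbtb7b summed to between 1107 and 1324 CPM, the CD8 pair to between 11.2 and 20.9 CPM, B cell markers to at most 6.63 CPM and NK cell markers to at most 0.979 CPM. The 7 stroma markers summed to 126, 141 and 105 CPM with STAT5B and to 179, 164 and 131 CPM with Y665H, with each of the 7 log2 fold changes above 0, and the 5 tested mast cell and basophil markers summed to between 1.998 and 5.27 CPM with STAT5B and between 5.27 and 9.35 CPM with Y665H, also with each above 0. The part of these markers in the results was not tested. None of the 11 marker lists had a member past the thresholds used below. Depth was between 24437975 and 45211427 reads on genes, and 30.1% to 36.9% of counted reads had no gene.

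The genes lower with Y665H included feedback inhibitors of JAK signaling, the IL-2 receptor alpha chain and cytokines. Of 20113 genes tested, 26 were lower (0.129%) and 4 were higher (0.0199%) with Y665H than with STAT5B, or 0.149% in all. A gene was called when edgeR's quasi-likelihood test gave an adjusted p under 0.05 and it had moved by more than 1 on the log2 scale, up or down. The lower genes stood at 14.6% to 49.1% of their STAT5B level, with a median of 36.5%, and the 4 higher genes at 204% to 322%. For each of the 30 genes the 3 Y665H libraries lay on one side of the 3 STAT5B libraries, which held for 5.91% of all genes below and for 7.11% above. With the replicate number as a block, which compares libraries of the same number, 65 genes were lower (0.323%) and 51 higher (0.254%), or 0.577% in all, and all 30 genes were among them. The size of the set without the block depended on single libraries. It was 7 without STAT5B replicate 1, 9 without STAT5B replicate 2, 10 without Y665H replicate 1, 47 without Y665H replicate 2, 45 without STAT5B replicate 3 and 6 without Y665H replicate 3. Socs2, Il2ra, Gm13546, 6430571L13Rik and Pydc3 were called in each of these 6 fits, and with the block between 76 and 159 genes were called without 1 of these libraries. The balance of lower and higher genes also turned with the block, to 57 lower and 102 higher without STAT5B replicate 2 and to 55 lower and 66 higher without Y665H replicate 1.

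**Figure D1:**
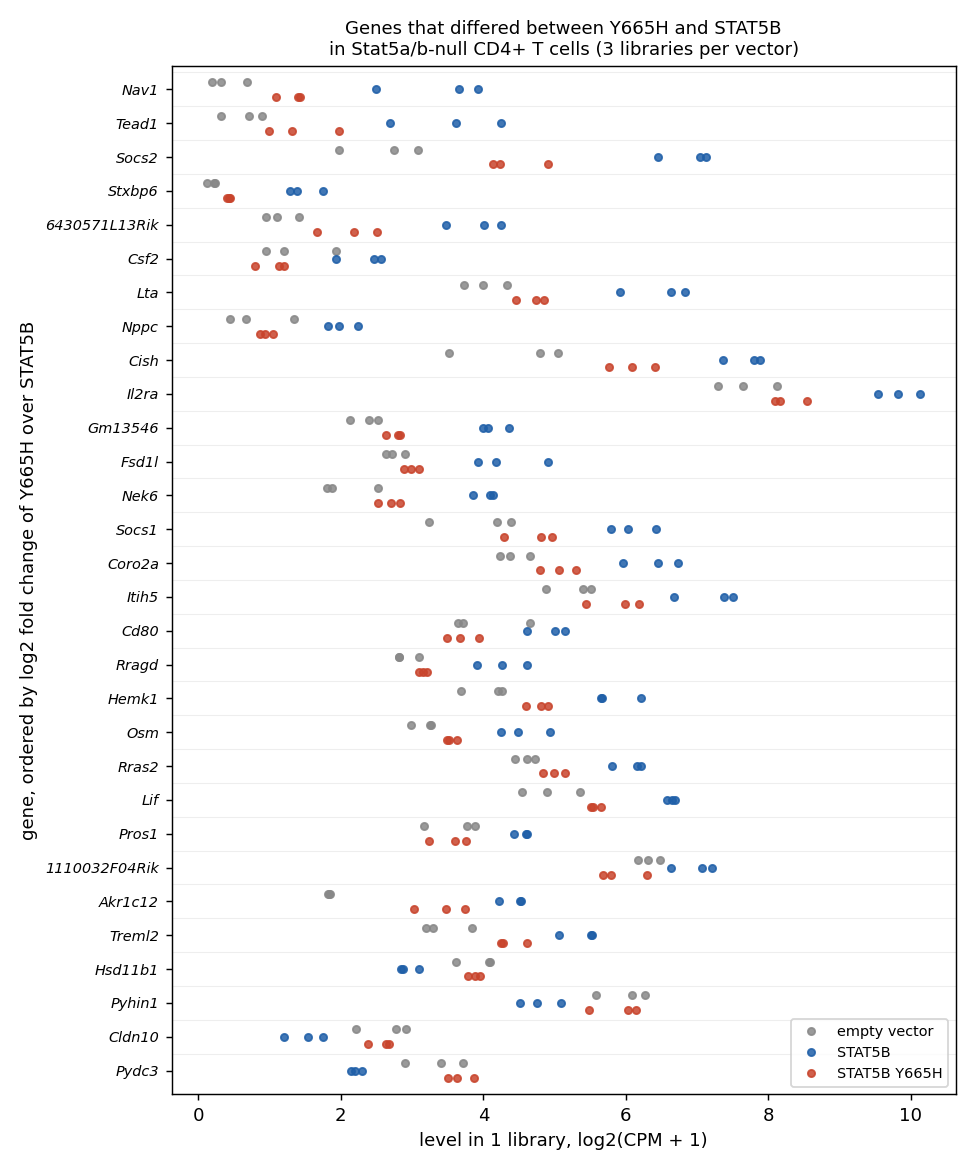
Level of the 30 called genes in each of 9 libraries of Stat5a/b-null CD4+ T cells, as log2(CPM + 1) on the horizontal axis, with 1 point per library for the empty vector (grey), STAT5B (blue) and Y665H (red). Red points lie left of the blue points for the 26 lower genes and right of them for the 4 higher genes, and mostly near the grey points.

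The feedback inhibitors of JAK signaling were among the genes that fell. Socs2, a member of the SOCS family that dampens cytokine and growth hormone receptors, lies on chromosome 10 of GRCm38 from 95385362 to 95417180. It was at 139, 131 and 86.6 CPM with STAT5B, at 17.8, 28.9 and 16.5 CPM with Y665H and at 2.91, 5.68 and 7.499 CPM with the empty vector. The lowest STAT5B library exceeded the highest Y665H library, and every Y665H library exceeded every empty-vector library. The log2 fold change of Y665H over STAT5B was −2.50 (SE 0.29, adjusted p = 0.00108 by edgeR).

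Cish encodes CIS, an inhibitor that binds activated cytokine receptors, on chromosome 9 from 107296026 to 107302784. It was at 234, 222 and 163 CPM with STAT5B and at 53.4, 83.7 and 67.0 CPM with Y665H. The empty-vector libraries held 10.4, 26.7 and 32.2 CPM, so the 3 vectors formed separate steps without overlap. The log2 fold change was −1.60 (SE 0.29, adjusted p = 0.0267 by edgeR). Socs1, which inhibits JAK kinases directly, was at 64.6, 84.6 and 54.2 CPM with STAT5B and at 18.5, 30.3 and 27.1 CPM with Y665H. Its log2 fold change was −1.43 (SE 0.29, adjusted p = 0.0459), the highest adjusted p of the 26 lower genes, and here the Y665H libraries overlapped the empty-vector libraries at 8.39, 17.2 and 20.0 CPM. These 3 were the called members of the 8 SOCS and CIS genes, against 0.129% of all genes called lower. The median log2 fold change of the 8 was −0.21 against 0.06 over all genes. Socs7 was at 68.6 ± 5.69 CPM with STAT5B and 55.8 ± 12.6 CPM with Y665H (SD, n = 3 each) and did not pass (adjusted p = 0.51 by edgeR).

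Il2ra encodes the alpha chain that makes the IL-2 receptor of high affinity, on chromosome 2 from 11642807 to 11693193. It was at 1117, 899 and 740 CPM with STAT5B and at 286, 373 and 271 CPM with Y665H. With the empty vector it was at 156, 199 and 277 CPM, so that the Y665H libraries lay well under STAT5B and touched the empty-vector range. The log2 fold change was −1.57 (SE 0.21, adjusted p = 0.00295 by edgeR). Of the 8 receptors of the common gamma-chain family Il2ra alone was called. Il4ra, a receptor chain for IL-4 and IL-13, had a log2 fold change of −0.65 (adjusted p = 0.13), Il2rb, the IL-2 receptor beta chain, had −0.37 (0.46) and Il2rg, the shared gamma chain, had 0.13 (0.70), all by edgeR. None of the 9 JAK kinases and other STAT factors passed, with values from −0.13 to 0.22.

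Of 27 cytokine genes 4 fell and none rose, against 0.129% of all genes lower and 0.0199% higher. Lta encodes lymphotoxin alpha, a secreted TNF family ligand, on chromosome 17 from 35203165 to 35205351. It was at 113, 98.7 and 59.7 CPM with STAT5B, at 20.9, 27.8 and 25.8 CPM with Y665H and at 12.2, 14.9 and 19.1 CPM with the empty vector. The 3 vectors did not overlap, and Y665H was close to the empty vector. The log2 fold change of Y665H over STAT5B was −1.87 (SE 0.32, adjusted p = 0.0213 by edgeR).

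Lif and Osm, cytokines that signal through gp130, lie beside each other on chromosome 11 with 16531 bases between them. Lif was at 94.8, 99.0 and 102 CPM with STAT5B and at 45.5, 49.4 and 44.7 CPM with Y665H, with groups that did not overlap (log2 fold change −1.08, SE 0.15, adjusted p = 0.00459 by edgeR). Osm was at 21.5, 29.6 and 17.9 CPM with STAT5B and at 10.2, 10.5 and 11.4 CPM with Y665H. Neither gene overlapped between the vectors. Csf2, the gene of GM-CSF, was low throughout, at 4.53, 2.83 and 4.94 CPM with STAT5B and at 0.729, 1.20 and 1.29 CPM with Y665H. Its empty-vector libraries held 0.923, 1.299 and 2.82 CPM, overlapping Y665H and staying just under the lowest STAT5B library. Il21, a cytokine of follicular helper cells, was called higher only in the fit with the block.

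Nav1, Tead1 and Socs2 had the largest falls on the log2 scale, and Stxbp6 came next. Nav1, a neuronal navigator that binds microtubules, was at 14.2, 11.6 and 4.65 CPM with STAT5B and at 1.13, 1.70 and 1.64 CPM with Y665H. STAT5B replicate 3 was the lowest of its group, yet above each Y665H library (log2 fold change −2.79, SE 0.46, adjusted p = 0.015 by edgeR). Tead1, a transcription factor of the Hippo pathway, was at 18.0, 11.2 and 5.43 CPM with STAT5B and at 0.988, 2.93 and 1.48 CPM with Y665H. Stxbp6, a syntaxin-binding protein, was at 2.37, 1.603 and 1.43 CPM with STAT5B and at 0.353, 0.367 and 0.316 CPM with Y665H. These genes were lower still with the empty vector, at no more than 0.607 CPM for Nav1, 0.857 CPM for Tead1 and 0.179 CPM for Stxbp6.

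Coro2a, an actin-binding coronin, was at 105, 86.2 and 61.3 CPM with STAT5B and at 32.3, 38.4 and 26.8 CPM with Y665H. Nek6, a mitotic kinase, was at 16.0, 16.5 and 13.4 CPM with STAT5B and at 4.75, 5.53 and 6.13 CPM with Y665H. Rras2, a small GTPase, was at 70.3, 73.0 and 55.0 CPM with STAT5B and at 27.5, 30.9 and 34.5 CPM with Y665H. In each of them the groups did not overlap. Rragd, a GTPase that links amino acids to mTORC1, was at 23.6, 18.1 and 14.0 CPM with STAT5B and at 7.86, 8.23 and 7.58 CPM with Y665H. Cd80, a ligand of CD28 and CTLA-4, was at 31.1, 23.5 and 34.4 CPM with STAT5B and at 11.8, 10.3 and 14.3 CPM with Y665H. Its empty-vector libraries, at 11.5, 12.1 and 24.2 CPM, reached into the STAT5B range. Treml2, a receptor on activated lymphocytes, was at 44.5, 45.0 and 32.5 CPM with STAT5B and at 18.4, 18.0 and 23.5 CPM with Y665H. Pros1, the gene of protein S, was at 20.6, 23.3 and 23.5 CPM with STAT5B and at 8.42, 11.2 and 12.5 CPM with Y665H. The log2 fold changes of these 7 genes lay between −1.49 for Nek6 and −1.03 for Treml2.

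At one locus neighboring genes fell together. Cish, Hemk1, a methyltransferase gene, and 6430571L13Rik lie in a row on chromosome 9, with 24300 bases between Cish and Hemk1 and 2252 bases between Hemk1 and 6430571L13Rik. Hemk1 was at 73.0, 49.1 and 49.6 CPM with STAT5B and at 23.3, 26.9 and 29.0 CPM with Y665H. The groups were again separate. 6430571L13Rik was at 18.1, 15.1 and 10.1 CPM with STAT5B and at 3.55, 4.67 and 2.18 CPM with Y665H, a log2 fold change of −2.06 (SE 0.27, adjusted p = 0.00235 by edgeR). Among the 28 called genes with a position, Lif and Osm were the other close pair.

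The remaining lower genes were Itih5, an inter-alpha-trypsin inhibitor chain, Fsd1l, the antisense RNA Gm13546, 1110032F04Rik, Nppc and Akr1c12. Gm13546 had the lowest adjusted p of all, at 19.5, 15.8 and 14.98 CPM with STAT5B and at 5.20, 6.10 and 5.97 CPM with Y665H (log2 fold change −1.54, SE 0.16, adjusted p = 0.000279 by edgeR). It overlaps Cytip on the other strand, as Nek6 overlaps Psmb7 and Hsd11b1 overlaps Lamb3. The strand setting of the counting was not given in the sources used here, so the reads of such pairs may not be told apart. Nppc, the gene of C-type natriuretic peptide, was at 2.95, 2.52 and 3.71 CPM with STAT5B and at 0.917, 1.07 and 0.821 CPM with Y665H. 1110032F04Rik was at 147, 134 and 98.2 CPM with STAT5B and at 50.3, 77.6 and 54.1 CPM with Y665H, and it differed from most of the set in that the empty vector, at 78.2, 88.3 and 71.1 CPM, was mostly higher than Y665H.

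Akr1c12 belongs to a cluster of aldo-keto reductases, enzymes that reduce steroids and other carbonyls. It was at 21.9, 22.1 and 17.7 CPM with STAT5B, at 12.3, 10.1 and 7.14 CPM with Y665H and at 2.60, 2.57 and 2.54 CPM with the empty vector, so the 3 vectors did not overlap. Akr1c13 had a log2 fold change of −0.98 (adjusted p = 0.00295 by edgeR) and stood just under the fold minimum. Akr1c18 had −1.65 (adjusted p = 0.0776) and was called with the block (5.14e-05). Members of this cluster share sequence to differing degrees, so reads may be split between the most similar ones.

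Of the 4 genes that rose, Pydc3 and Pyhin1 belong to the interferon-inducible PYHIN family. Pydc3 was at 3.93, 3.42 and 3.59 CPM with STAT5B, at 10.3, 11.4 and 13.6 CPM with Y665H and at 12.2, 9.55 and 6.50 CPM with the empty vector. The Y665H libraries lay above STAT5B and overlapped the empty vector (log2 fold change 1.69, SE 0.21, adjusted p = 0.00201 by edgeR). Pyhin1 was at 21.9, 26.0 and 33.1 CPM with STAT5B and at 69.7, 43.5 and 64.4 CPM with Y665H. Members of this family share sequence, so their counts are uncertain. Hsd11b1, which converts inactive to active glucocorticoid, was at 6.33, 7.59 and 6.17 CPM with STAT5B and at 14.5, 12.8 and 13.7 CPM with Y665H. Cldn10, a claudin, was at 1.31, 2.35 and 1.92 CPM with STAT5B and at 5.22, 4.23 and 5.37 CPM with Y665H. For all 4, STAT5B was lower than the empty vector and Y665H lay within 0.32 of it on the log2 scale. These 4 genes were chosen through the same STAT5B and Y665H libraries, so nothing is read from these positions.

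The values against the empty vector use shared libraries and are given side by side. Over the 26 lower genes the median log2 fold change over the empty vector was 2.02 with STAT5B and 0.64 with Y665H. The 26 genes were chosen through the same STAT5B and Y665H libraries, so nothing is read from these medians. For Y665H over the empty vector 2 of them, Socs2 and Akr1c12, were called, against 0.0249% of all genes called higher. With the block Cish (log2 fold change 1.56, adjusted p = 0.00794 by edgeR) and 6430571L13Rik (1.47, adjusted p = 0.00117) were called too, against 0.0845% of all genes. Of the 26 genes, 22 were above the empty vector with Y665H, and the exceptions were Csf2, Cd80, Pros1 and 1110032F04Rik.

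Libraries outside this comparison give a list of genes that were lower where Stat5a and Stat5b had been removed. In null cells with the empty vector, 468 genes were lower than in WT cells with the empty vector (2.13%) and 561 were higher (2.55%), by the same thresholds over all 30 CD4+ libraries. None of these 6 libraries entered the contrast of Y665H with STAT5B. Of the 26 genes lower with Y665H, 24 (92.3%) were among the genes lower with loss, and they made up 5.14% of the 467 of these tested in the null cells, which are 2.32% of all genes tested. The exceptions were Nppc, with a log2 fold change with loss of 0.36, and 1110032F04Rik, with −0.61. Of the 4 higher genes 3 were higher with loss, all but Pydc3 (0.89, adjusted p = 0.19 by edgeR). With the block, 52 of the 65 lower genes (80.0%) were lower with loss and 27 of the 51 higher genes (52.9%) were higher with loss.

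Seen from the side of the loss, the 467 genes had a median log2 fold change of −0.41 for Y665H over STAT5B, with 79.0% below 0, against 0.06 and 43.1% over all genes tested. In 139 of them (29.8%) the 3 Y665H libraries lay below the 3 STAT5B libraries, against 5.91% of all genes. The 561 genes higher with loss had a median of 0.37, and in 150 of them (26.7%) the Y665H libraries lay above, against 7.11%. In WT cells the medians of the same lists were −0.06 and 0.07, against −0.007 over all genes tested in the null cells. Nav1 fell most with loss among the called genes, by 7.39 on the log2 scale, and Lama5, an extracellular matrix laminin that fell by 6.05 with loss, had −1.05 for Y665H over STAT5B and did not pass (adjusted p = 0.535 by edgeR).

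**Figure D2:**
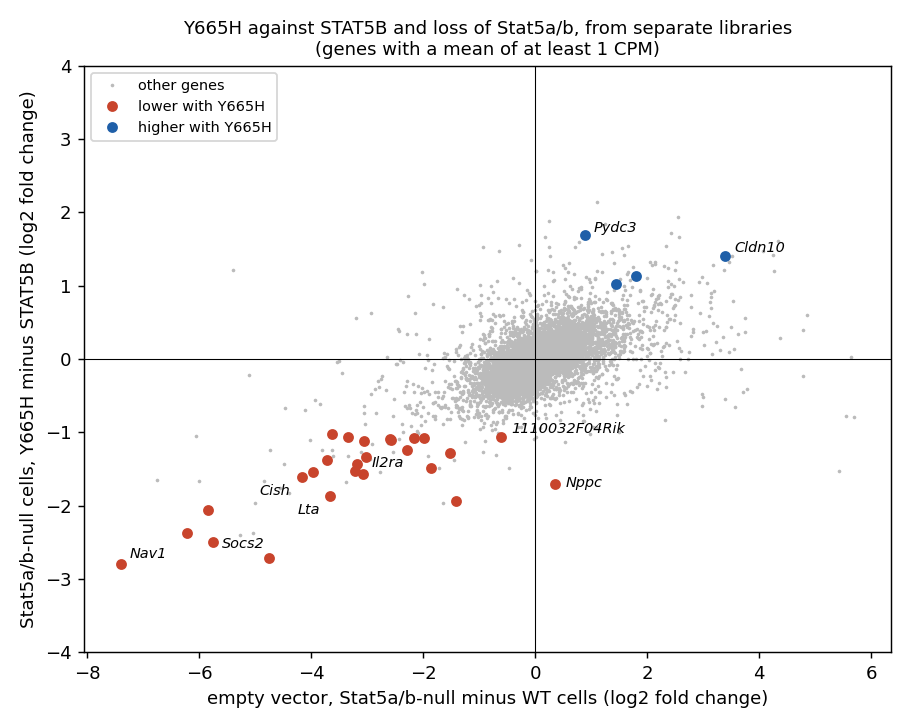
Log2 fold change between Stat5a/b-null and WT cells with the empty vector (horizontal) against that between Y665H and STAT5B in null cells (vertical), for genes averaging 1 CPM or more, where the 2 axes use separate libraries. The 26 lower genes (red) lie in the lower left apart from Nppc, and the 4 higher genes (blue) in the upper right.

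The same contrast was also made in WT cells, which keep their own STAT5. In WT cells 1 gene, the imprinted RNA H19, differed between Y665H and STAT5B (0.00488% of 20509 tested) and 16 were lower with the block (0.078%). None of the 30 genes was called there by edgeR, where 327 of all genes had an unadjusted p under 0.05 and DESeq2 called 2. Log2 fold changes of the 26 lower genes in WT cells lay between −0.79 and 0.24, with 21 below 0. Their median was −0.17, against −0.008 over all genes tested in WT cells. Cish was at 408, 491 and 304 CPM with STAT5B and at 420, 495 and 287 CPM with Y665H in WT cells. Il2ra was at 1871, 2259 and 1483 CPM with STAT5B and at 1911, 2120 and 1286 CPM with Y665H. For both genes the WT libraries of the 2 vectors overlapped. Lta was at 422, 483 and 182 CPM with STAT5B and at 304, 263 and 109 CPM with Y665H in WT cells, lower in 3 of 3 pairs. With the block its log2 fold change there was −0.70 (adjusted p = 0.00387 by edgeR), and Hemk1 (−0.56, adjusted p = 0.015) and Pyhin1 (0.71, adjusted p = 0.0471) also passed on adjusted p, all short of the fold minimum. Gm13546 was at 96.9, 81.4 and 70.9 CPM with STAT5B and at 70.2, 51.4 and 55.1 CPM with Y665H in WT cells, without overlap. The 4 higher genes had values between 0.33 and 1.14 in WT cells, with all 4 above 0.

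The difference between backgrounds was tested as an interaction over all 30 libraries. Without the block edgeR called no gene (0% of 21975 tested, with 998 at an unadjusted p under 0.05), DESeq2 called 4, and the lowest adjusted p of the 26 was 0.061, for Socs2. With the replicate number as a block within each background 49 genes passed (0.223%), 47 with a more negative contrast in null cells (0.214%). Of the 26 lower genes 18 were among the 49. The 26 were chosen through the null contrast, which enters this difference, so nothing is read from that count. Socs2 differed by −2.34 on the log2 scale (adjusted p = 1.27e-06 by edgeR with the block), Cish by −1.65 (0.0051) and Il2ra by −1.52 (0.000183). For Lta the difference was −1.14 (adjusted p = 0.0793), and for the 4 higher genes it did not pass.

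**Figure D3:**
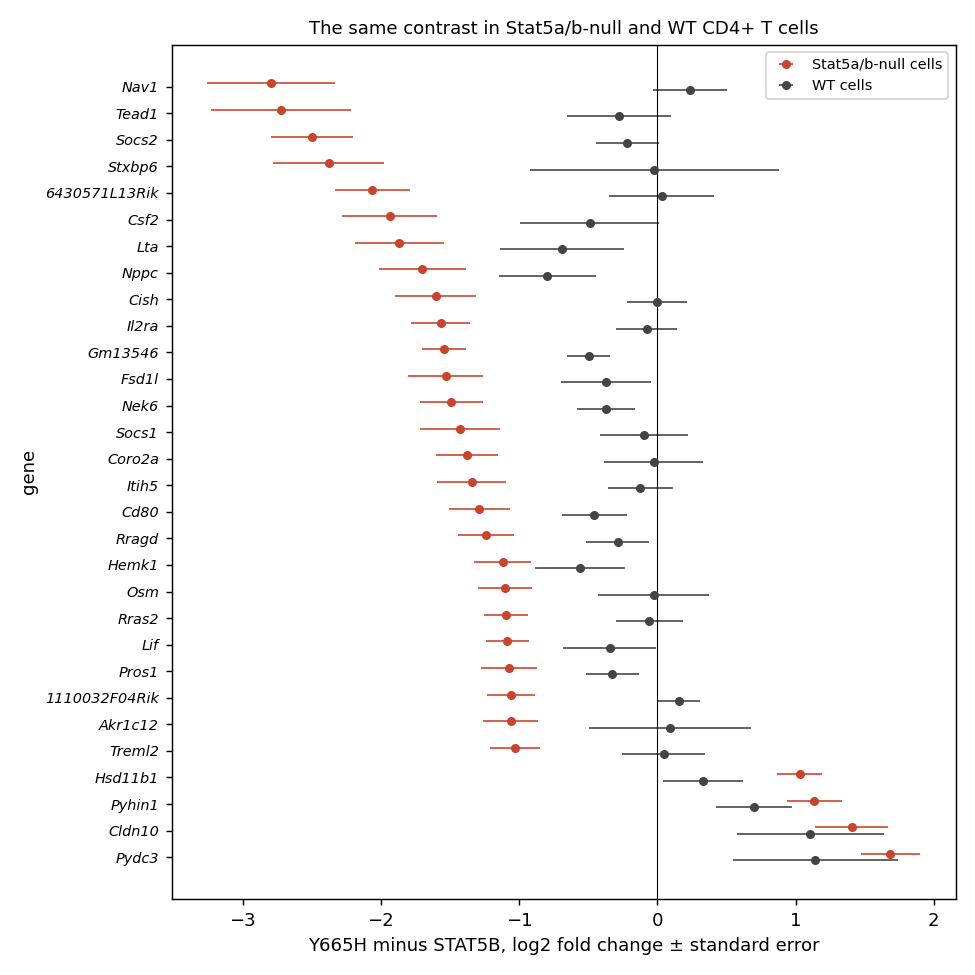
Log2 fold change of Y665H over STAT5B with its standard error for the 30 called genes, in Stat5a/b-null cells (red) and in WT cells (grey). Each fold change compares 6 libraries, and its standard error is from the fit of all 5 vectors of that background. In WT cells the 26 lower genes lie between −0.79 and 0.24, and none is called.

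Known STAT5 targets, the longest list, had the most called members. The lists were written with earlier results of these data known, so they are described by counts. Of 30 known targets 7 fell (Socs2, Il2ra, Lif, Lta, Cish, Socs1 and Osm) and none rose, against 0.129% and 0.0199% of all genes. All 7 also belong to the SOCS and CIS, common gamma-chain or cytokine lists above, so these lists do not count separate genes. In 17 the Y665H libraries lay below those of STAT5B, against 5.91% of all genes. The median log2 fold change was −0.57, and 26 of the 30 had values below 0, against 43.1% of all genes. Pim1, a kinase of cell survival, was at 77.7 CPM with STAT5B and 36.2 CPM with Y665H on average, with a log2 fold change of −1.10 and an adjusted p of 0.17 by edgeR, and was called with the block (0.023). Myc had −0.77 (adjusted p = 0.094), Bcl2l1 had −0.67 (0.16) and Bcl2 had −0.38 (0.31), and none of these survival and growth genes was called. With the block Myc (adjusted p = 0.00515 by edgeR) and Bcl2l1 (0.0126) passed on adjusted p but not on the fold minimum, and Bcl2 passed neither (0.0606). Pim3, outside this list, had −0.79 and passed on adjusted p without the block (0.0352 by edgeR), also short of the fold minimum. Slc3a2, the heavy chain of CD98, was at 124, 126 and 125 CPM with STAT5B and at 104, 126 and 114 CPM with Y665H, with groups that overlapped. Slc7a5, its light chain partner for amino acid transport, was at 154 CPM with STAT5B and 80.8 CPM with Y665H (log2 fold change −0.93, adjusted p = 0.0541 by edgeR).

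With 0.149% of all genes called, the absence of a called gene from a list of this size is not a result, and the growth lists are given by their medians. Over all genes the median log2 fold change was 0.06 and 43.1% of values were below 0. None of 25 cell cycle genes was called, with a median of −0.22 and 23 values below 0. None of 17 cholesterol synthesis genes was called, with a median of −0.32 and all 17 values below 0. None of 16 glycolysis genes was called, with a median of −0.07. Activation genes of the AP-1 and NFAT group had a median of −0.34, with 15 of 17 below 0 and Junb at −0.37 (adjusted p = 0.21 by edgeR). No gene of the 13 TNF receptors was called, and Tnfrsf18, which encodes GITR, had −0.60 (adjusted p = 0.068). Of 14 regulatory T cell genes only Il2ra was called without the block, and the median was −0.24. In 6 of them the Y665H libraries lay below those of STAT5B, against 5.91% of all genes.

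The follicular helper, cytotoxic and interferon lists had medians above 0 without a called member. Of 14 follicular helper genes none was called without the block and 2 were called higher with it. The median log2 fold change was 0.47, and in 8 of 14 genes the Y665H libraries lay above those of STAT5B, against 7.11% of all genes. In 1 they lay below, against 5.91%. Of the 14 values 3 were below 0, the lowest at −0.52, against 43.1% of all genes. Sh2d1a was among these 3, with values from −0.63 to −0.40 in the alternative fits. Bcl6, the repressor that defines these cells, was at 11.8 CPM with STAT5B and 21.4 CPM with Y665H on average (0.87, adjusted p = 0.095 by edgeR), and Cxcr5 had 0.90 (0.095). Of 14 cytotoxic granule genes none was called without the block, the median was 0.69, and Gzmb and Ctsw were called with it. In none of these 14 were the Y665H libraries all above or all below those of STAT5B, against 7.11% and 5.91% of all genes. Interferon-induced genes had a median of 0.31, with Isg15 called higher only with the block, while Gbp5, a guanylate-binding protein, had −0.92 (adjusted p = 0.21). Of these 22 genes the Y665H libraries lay above those of STAT5B in 3 and below in 1, against 7.11% and 5.91% of all genes. The list summed to 571.6, 797.4 and 919.7 CPM with STAT5B and to 480.5, 611.6 and 839.7 CPM with Y665H, so its sum was lower with Y665H in each same-number pair. In the T cell marker list 5 of 8 tested members were above STAT5B in every Y665H library, against 7.11% of all genes, Cd3e among them (0.38, adjusted p = 0.23 by edgeR), and the part of this list in these values was not tested.

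**Figure D4:**
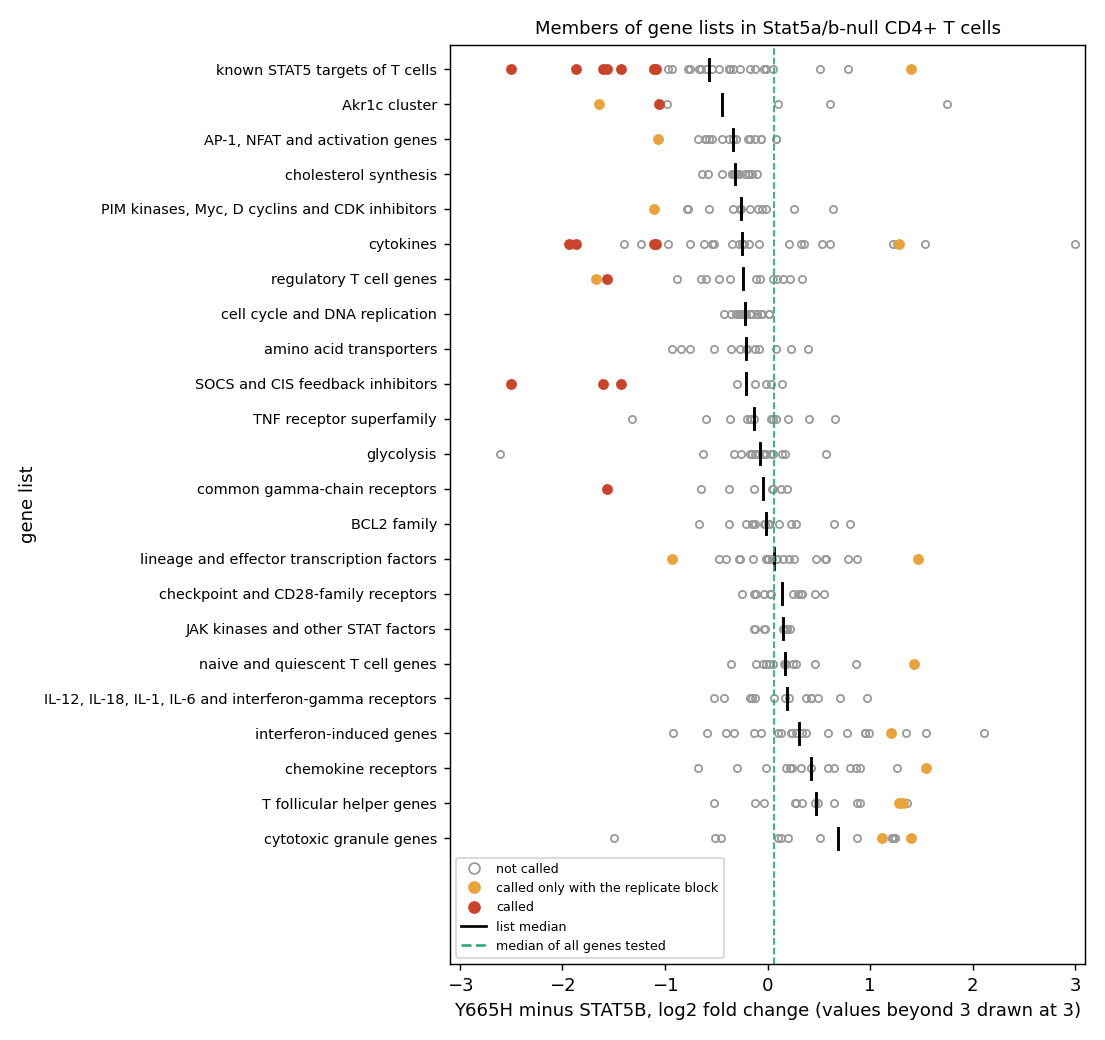
Log2 fold change of Y665H over STAT5B in null cells (horizontal) for the tested members of 23 gene lists, ordered by their median (black bars), with the median of all genes as a dashed line. Red points are called, orange points are called only with the replicate block, and a value beyond 3 is drawn at 3. Red points appear only to the left of −1.

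Comparing libraries of the same number brought out further genes, and the next ones were chosen by the block rather than by the first fit. Notch2, a receptor for Notch ligands, was at 294, 254 and 179 CPM with STAT5B and at 37.6, 125 and 98.2 CPM with Y665H (−1.59, adjusted p = 0.00107 by edgeR with the block, 0.0616 without). Lrrc32, which anchors TGF-beta on regulatory T cells, was at 16.5, 13.4 and 7.39 CPM with STAT5B and at 1.599, 5.63 and 4.71 CPM with Y665H (adjusted p = 0.00868 with the block, 0.0939 without). In both genes Y665H replicate 1 was the lowest library. Abi3bp, Ifit1bl1, Pde1a, Muc13, Lpar3, Car2 and She were lower by the same test, with log2 fold changes from −2.36 to −1.37. Rph3a, Fgf1, Nyx, Rec8, Rerg, BC094916, Pkhd1l1, Coro2b, Adam12 and Gm14085 were higher, with log2 fold changes from 1.21 to 1.85, and were mostly low in level.

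Some genes overlapped between the vectors and were called only within same-number pairs. Maf, a transcription factor of helper T cells that make IL-10 and IL-21, was at 3.79, 5.44 and 11.02 CPM with STAT5B and at 9.27, 16.2 and 30.03 CPM with Y665H, higher in 3 of 3 pairs (adjusted p = 0.26 without the block and 3.95e-05 with it, by edgeR). Gzmb, granzyme B, was at 11.3, 19.0 and 59.3 CPM with STAT5B and at 11.8, 40.3 and 183 CPM with Y665H, with replicate 3 the highest library of each vector and the replicate 1 libraries nearly level. Its log2 fold change turned to −0.15 without Y665H replicate 3. Irf8, a transcription factor of the interferon regulatory family, was at 84.98, 96.7 and 116 CPM with STAT5B and at 24.01, 43.3 and 89.0 CPM with Y665H. The groups overlapped, each Y665H library was below its partner, and the adjusted p was 0.458 without the block and 0.0387 with it (edgeR). The empty-vector libraries held 32.9, 51.5 and 157 CPM of Irf8, the last above every STAT5B library. The log2 fold change of STAT5B over the empty vector was 0.30 (adjusted p = 0.822 by edgeR without the block).

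**Figure D5:**
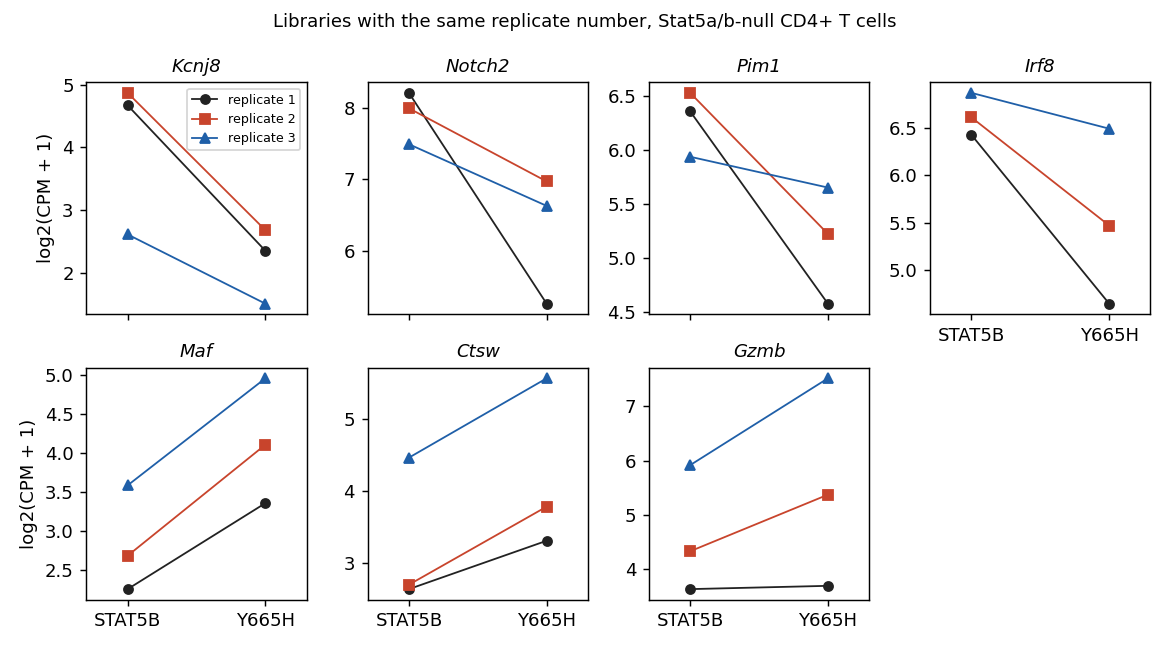
Level of 7 genes in null cells, as log2(CPM + 1), with lines that link STAT5B and Y665H libraries of the same replicate number; the genes were chosen after their values were seen. Lines fall for Kcnj8, Notch2, Pim1 and Irf8 and rise or stay level for Maf, Ctsw and Gzmb, while replicate 3 stands apart in several panels.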

How the data were processed

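The authors deposited raw counts of reads per gene, made with Trimmomatic 0.36, STAR, SAMtools 1.9 and HTSeq 0.9.1 on mm10 according to the submitters' processing notes and the study's methods, from stranded total RNA libraries. The annotation and strand setting of the counting were not given in the sources used here. The 5 closing lines of each file that name no gene entered neither library sizes nor tests. With 3 libraries a group, precision rests on the spread within groups, estimated over all groups of a fit together. Genes with at least 10 reads over the fitted libraries were tested with edgeR 4.0.16 (R 4.3.3), TMM factors and quasi-likelihood tests, with Benjamini-Hochberg adjustment over all genes. Null cells (5 vectors, 15 libraries), WT cells and all 30 CD4+ libraries for the interaction and the loss of Stat5a/b were fitted apart, and CPM values are comparable within a fit. DESeq2 1.42.0, RLE factors, other filters, the 6 libraries alone, a replicate block and fits without single libraries were alternatives, and the procedure was tested on simulated data. SE is the log2 fold change over the root of the F statistic.

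The labels number the libraries of each vector. Deviations from group means correlated above 0.1 in 30 of 30 same-number null pairs (median 0.455) and in 1 of 60 other-number null pairs. For STAT5B with Y665H it was 3 of 3 same-number pairs (0.216 to 0.413) and 0 of 6 others. Deviations within a group sum to 0, which pushes other-number pairs below 0 when same-number pairs are above it. The other-number pairs are therefore no separate support. The numbers were taken to pair the libraries from the same-number values alone, since no label says what they share.

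The members, gene lists and tests were chosen with earlier results of these data known. Genes were named if called, if called only with the block (up to 10 each way with a mean of at least 1 CPM and no overlap), if the study names them (Stat5b, Stat5a, Socs2, Cish, Lta, Irf8, Il2ra and Slc3a2), if among the 4 lowest p of a gene list, if called in the interaction, or if among the 5 largest falls with loss of Stat5a/b. Other names were chosen after their values were seen. Positions are from GENCODE M21 on GRCm38, which gave 28 of the 30 called genes a position, and start-site windows from RefSeq on GRCm38.p6.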

Additional observations from a re-analysis of the deposited data

Results flagged for a closer look

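The contrast of Y665H with STAT5B differed between null and WT cells for 18 of the called genes, by the interaction test of edgeR with the replicate number as a block within each background. The difference was computed as the log2 fold change in null cells minus that in WT cells. The called genes were chosen through the null contrast, which enters this difference, so nothing is read from their number. It was −2.94 for Nav1, −2.43 for Tead1, −2.43 for Stxbp6, −2.34 for Socs2 and −2.08 for 6430571L13Rik. Further down it was −1.65 for Cish, −1.52 for Il2ra, −1.37 for Coro2a, −1.36 for Socs1, −1.24 for 1110032F04Rik and −1.24 for Itih5. Values of −1.16 for Nek6, −1.15 for Akr1c12, −1.13 for Fsd1l, −1.11 for Treml2, −1.09 for Gm13546, −1.08 for Rras2 and −1.08 for Osm completed the set. Adjusted p-values of the 18 genes lay at or below 0.0337, the value of Socs1. Without the block none of these differences passed, and the lowest adjusted p was 0.061, for Socs2 (edgeR).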

How the results depend on the processing

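For Y665H against STAT5B in null cells, 30 genes were called, and the count was 46 without a fold minimum, 67 with DESeq2 (20 higher and 47 lower), 116 with the replicate block, 95 with the replicate block in the 6 libraries alone and 121 with the replicate block in DESeq2. It was 29 with RLE size factors, 25 with filterByExpr, 38 without a filter on low counts and 34 with the 6 libraries alone. Leaving out 1 library gave 6 to 47 without the block. With the block the count was 76, 159 and 97 without STAT5B replicate 1, 2 and 3 and 121, 133 and 115 without Y665H replicate 1, 2 and 3, fits chosen after seeing the data, and 101, 171 and 105 without both libraries of number 1, 2 and 3. Higher genes outnumbered lower ones, 102 to 57, without STAT5B replicate 2, 66 to 55 without Y665H replicate 1 and 55 to 46 without both libraries of number 1, and DESeq2 with the block gave 59 higher and 62 lower. The same contrast in WT cells had 1 gene and gave 2 with DESeq2, 0 with filterByExpr, 0 with the 6 libraries alone, 16 with the replicate block, 31 with the replicate block in the 6 libraries alone and 33 with the replicate block in DESeq2, 0 to 2 when 1 library was left out, and, with the block, 19, 7 and 60 without both libraries of number 1, 2 and 3. The difference between backgrounds had 0 genes and gave 4 with DESeq2, 2 without a filter on low counts, 49 with the replicate block within background and 0 to 3 when 1 library was left out. Genes lower with loss of Stat5a/b numbered 468, or 1551 without a fold minimum, and 305 to 520 when 1 library was left out. The cause of these shifts was not tested. The 30 called genes kept their direction in all 23 alternatives, and 5 of them (Socs2, Il2ra, Gm13546, 6430571L13Rik and Pydc3) were called in each. Over the 30 genes, 555 of 690 values stayed called. All 30 were called with DESeq2. Of genes that were not called, signs turned without Y665H replicate 3 for Gzmb (−0.15), Gzmc (−0.14) and Stat5b (0.0021), without Y665H replicate 2 for Il1r2 (−0.15), and without STAT5B replicate 1 with the block for Stat5b (0.021), and their values without 1 library reached 2.36 for Gzmb, 1.89 for Gzmc, 1.02 for Il1r2 and −0.53 for Stat5b. The Stat5b level difference on the log2 scale was −0.21 with library totals and −0.25 with a pseudocount of 0.1. Depth was not lowered to test its effect.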

Other observations

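Kcnj8, a subunit of ATP-sensitive potassium channels, was at 24.5, 28.3 and 5.10 CPM with STAT5B and at 4.09, 5.40 and 1.83 CPM with Y665H in null cells. Its lowest STAT5B library and highest Y665H library overlapped, while each Y665H library was below its partner of the same number (log2 fold change −2.25, adjusted p = 2.39e-07 by edgeR with the replicate block). In WT cells it was at 44.6, 55.5 and 32.8 CPM with STAT5B and at 38.7, 61.5 and 30.3 CPM with Y665H. Batf3, a transcription factor of the AP-1 group, was lower with Y665H in WT cells (log2 fold change −1.51, adjusted p = 0.0206 by edgeR with the block) and was at 1.23, 1.10 and 2.16 CPM with STAT5B and 0.400, 1.37 and 4.80 CPM with Y665H in null cells, where it did not pass (adjusted p = 0.778). H19, the gene called in WT cells, was at 30.5, 23.8 and 6.56 CPM with STAT5B and at 2.40, 0.580 and 0.312 CPM with Y665H there, but at no more than 0.724 CPM in the null libraries of either vector. These 3 genes were chosen after their values were seen.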
